A study of Mus musculus with 8 samples.

Results

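The ventromedial nucleus of the hypothalamus (VMH) was compared with the arcuate nucleus (Arc), the dorsomedial nucleus (DMH) and the lateral hypothalamus (LH), and the RNAs described here are those that were lowest in the VMH. A probe was a member when it was well above background on all 6 Arc, DMH and LH arrays and lower on both VMH arrays than on each of those 6. Of 55681 probes, 23114 were well above background on all 6 arrays with a value on all 8, and 1903 of them (8.23%) met the rule. They stand for 1191 named genes of 20284 on the array, and 379 of the 1903 are known only by a chromosome position and are not named. Applied to the other nuclei in turn, the same rule took 2999 probes for the Arc, 684 for the DMH and 2370 for the LH, and 1817 probes (7.86%) were higher on both VMH arrays than on the other 6. Counted by gene, 10.5% of the 11347 named genes that could meet the rule were members, and 10.5% had a probe that was higher on both VMH arrays than on the other 6. Membership was defined by the VMH signals themselves, so every VMH difference below is a description and carries no test.

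All 4 nuclei were taken by laser microdissection from untreated C57BL/6 females that were 3 months old, with 2 arrays per nucleus and 2 mice in all. The labels do not say which arrays share a mouse, so the p-values below measure the spread between 2 arrays of a nucleus, which may be technical. Each array was a 1-color Agilent array, and a signal is given below as the processed signal of a probe scaled to the 75th percentile of its array. A scaled signal can be compared between arrays for the same probe but not between probes. Values are listed in the order of the replicate numbers.

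Neurons of the VMH are mostly glutamatergic. The core of the nucleus is defined by the nuclear receptor Nr5a1 and takes part in energy expenditure, glucose balance and defensive and sexual behavior, and neurons that release GABA, the main inhibitory transmitter, lie mostly in the surrounding shell and in neighboring nuclei. GABA is made from glutamate by 2 glutamate decarboxylases, Gad1 and Gad2, and is loaded into synaptic vesicles by the transporter Slc32a1. The dissections carried the RNAs that define them, but some of these RNAs were also read in another nucleus. *Nr5a1* read 12163 and 11694 in the VMH and 211 to 688 elsewhere, and *Agrp*, which marks the Arc, read 53020.4 and 47181 there and 397 to 581 elsewhere. *Hcrt*, which marks the LH, read 105972 and 116750.0 in the LH but also 55939.9 and 51283 in the DMH. *Pmch*, also high in the LH at 17650 and 17005, read 16253 and 11631 in the DMH and 3938 and 3140 in the VMH. In the Arc it read 97.5 and 71.1. *Prdm13* was well above background on both DMH arrays at 1661 and 1667, and read 140 on LH1 and 20.1 to 82.3 on the rest. Replicate arrays of the LH correlated less closely (r = 0.938 over the 28765 probes tested below) than those of the Arc, VMH and DMH (0.971 to 0.981). LH1 also held 364 spots with an outlier mark against 126 to 161 on the other arrays. Without LH1 the rule took 2450 probes and without LH2 it took 2662, and with only VMH2 or only VMH1 as the VMH it took 3745 and 3838, since fewer arrays make it easier to meet.

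Most members were lower by a modest amount. Their median log2 difference, the VMH mean minus the mean of the other 3 nuclei, was -0.66 (1.58-fold lower), beside 0.0098 over all 23114 probes that could have met the rule. A difference of at least 2-fold was seen for 475 members (301 genes), of at least 4-fold for 113 (82 genes), of at least 8-fold for 43 (37 genes) and of at least 16-fold for 14 (13 genes), taking every VMH signal as read. With VMH signals that were not well above background raised to the lowest one on that array that was, these counts were 446 (292 genes), 86 (67 genes), 22 (19 genes) and 5 (*Dlx1as*, *Tac2*, *Gad1*, *Slc32a1* and *Asb4*). The 113 probes and 82 genes named below as at least 4-fold lower are those by the signals as read. Background correction by normexp, described at the end, left far fewer members at least 4-fold lower. Of the 23114 probes, 122 (0.528%) were at least 4-fold lower, and 113 of those were members. At the edge of the rule, *Dusp8* lay just inside, with 585 and 606 in the VMH and a lowest other signal of 606 in LH2. *Tjp1* lay just outside, with 549 and 567 in the VMH and 567 in Arc2.

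On the VMH arrays, 1657 members were well above background on both, 196 on 1 and 50 on neither. Among the 113 members that were at least 4-fold lower these numbers were 48, 31 and 34. A VMH signal that was not well above background, called below background from here on, gives only an upper limit. The fold of a member with 1 or both VMH signals below background is therefore given as "at least", with each such signal raised to the lowest signal that was well above background on each VMH array (122 and 88.3). These lower bounds hold for the main processing only. With normexp background correction, described at the end, the difference of *Tac2* was smaller than its bound. In tissue samples, fewer cells of a type and less RNA per cell cannot be told apart, and this holds for every value below.

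**Figure D1:**
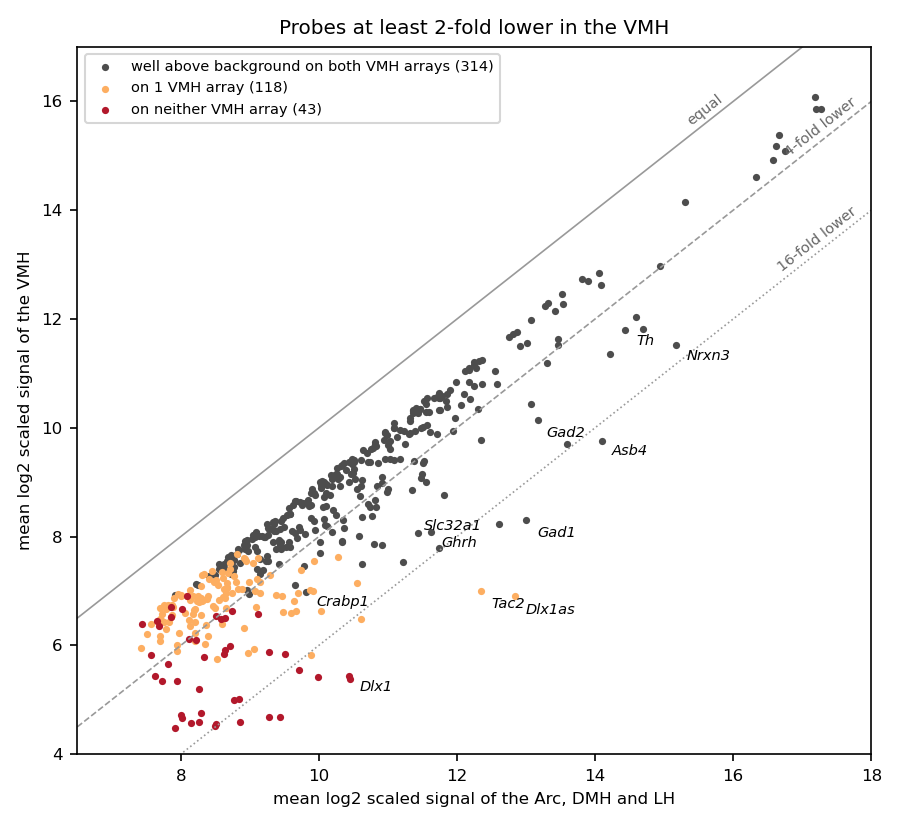
Mean log2 scaled signal of the VMH (vertical axis) against that of the Arc, DMH and LH (horizontal axis) for the 475 members at least 2-fold lower in the VMH, with 1 point per probe. Lines mark equal signals and signals 4-fold and 16-fold lower, and colors give whether the probe was well above background on both VMH arrays (314), on 1 (118) or on neither (43). As plotted, *Dlx1as* and *Tac2* lie farthest below the line of equal signals.

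The genes that make and load GABA were among the members with the largest differences. *Gad1* read 7309.8 and 7376 in the Arc, 7194 and 8709.7 in the DMH, 9704 and 9450.3 in the LH and 372 and 266 in the VMH. The 6 outer arrays lay close together and both VMH arrays far below them, a 26.2-fold lower mean (log2 difference -4.71, SD between arrays of a nucleus 0.20). This was the largest difference among named members that were well above background on all 8 arrays. *Gad2*, the other decarboxylase, read 6277 and 8174 in the Arc, 10205 and 8475 in the DMH, 12680.4 and 11226 in the LH and 1382 and 923 in the VMH, 8.20-fold lower in the VMH. *Slc32a1* was measured by 2 probes, and both were members. The first read 5639 and 6694 in the Arc, 7126 and 6589.9 in the DMH, 6682 and 4928 in the LH and 315 and 288 in the VMH, 20.7-fold lower. The second read 16094 and 17770.4 in the Arc, 18143 and 18672 in the DMH, 17842 and 27479 in the LH and 3306 and 2084 in the VMH, 7.25-fold lower, so that the 2 probes agreed in direction but not in size.

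None of the 3 genes differed among the Arc, DMH and LH by the limma F-test (adjusted p = 0.548 for *Gad1*, 0.295 for *Gad2*, and 0.745 and 0.68 for the 2 probes of *Slc32a1*). Of the 6 genes for GABA synthesis, loading and uptake that could meet the rule, these were the 3 members, beside 10.5% of all genes that could meet it, and the median difference over the 6 was -1.83. Of the 6, 4 had a difference below 0. Among those that were not members, the glial transporter *Slc6a11* and the GABA-degrading enzyme *Abat* had log2 differences of 0.16 and 0.12.

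Of 5 glutamate genes that could meet the rule, 0 did, where 10.5% of all genes did and a list of this size holds 1 or none at that share. In this list the median difference was 0.26, and 2 were higher on both VMH arrays than on the other 6. *Slc17a6*, the vesicular glutamate transporter of hypothalamic neurons, read 1365 and 1618 in the Arc, 3270.3 and 5079 in the DMH, 5101 and 3912 in the LH and 8341 and 10588 in the VMH, which is 3.13-fold higher in the VMH. The glutamate uptake transporter *Slc1a1* read 14617 and 14614 in the VMH and 7829 to 13768 elsewhere. Of 15 GABA-A and glycine receptor subunits that could meet the rule, 5 were higher on both VMH arrays than on all others and 1 was a member, beside 10.5% of all genes in each direction. Among the 5 was *Gabrb1* with 45351 and 46239 against 14250.4 to 26687. The member was *Gabre*, the epsilon subunit, with 16207 and 12316 in the Arc, 5798 and 6415 in the DMH, 1977 and 1339 in the LH and 933 and 818 in the VMH. It was 5.95-fold lower in the VMH and also uneven among the others (Arc minus LH 3.12, SE 0.26, adjusted p = 0.00179; F-test adjusted p = 0.00407).

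Upstream of the start sites of *Gad1* and *Slc32a1*, the RefSeq promoter table (GRCm38.p6) gives the following sequences. They are shown because these 2 genes had the largest differences among named members measured on all 8 arrays. Each is the 250 bases before the start site, 5′ to 3′, and neither holds any of the 3 motifs described below.
Gad1, chr2:70561879-70562128, plus strand: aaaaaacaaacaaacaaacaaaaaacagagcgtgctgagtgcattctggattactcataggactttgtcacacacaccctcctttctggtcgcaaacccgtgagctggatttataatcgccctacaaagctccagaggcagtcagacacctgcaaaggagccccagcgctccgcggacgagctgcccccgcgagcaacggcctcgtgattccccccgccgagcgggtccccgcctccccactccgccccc
Slc32a1, chr2:158610508-158610757, plus strand: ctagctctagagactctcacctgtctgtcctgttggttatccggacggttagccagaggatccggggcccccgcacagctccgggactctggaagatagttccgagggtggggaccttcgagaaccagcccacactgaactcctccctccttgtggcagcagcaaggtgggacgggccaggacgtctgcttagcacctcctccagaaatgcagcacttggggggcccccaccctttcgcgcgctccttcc

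**Figure D2:**
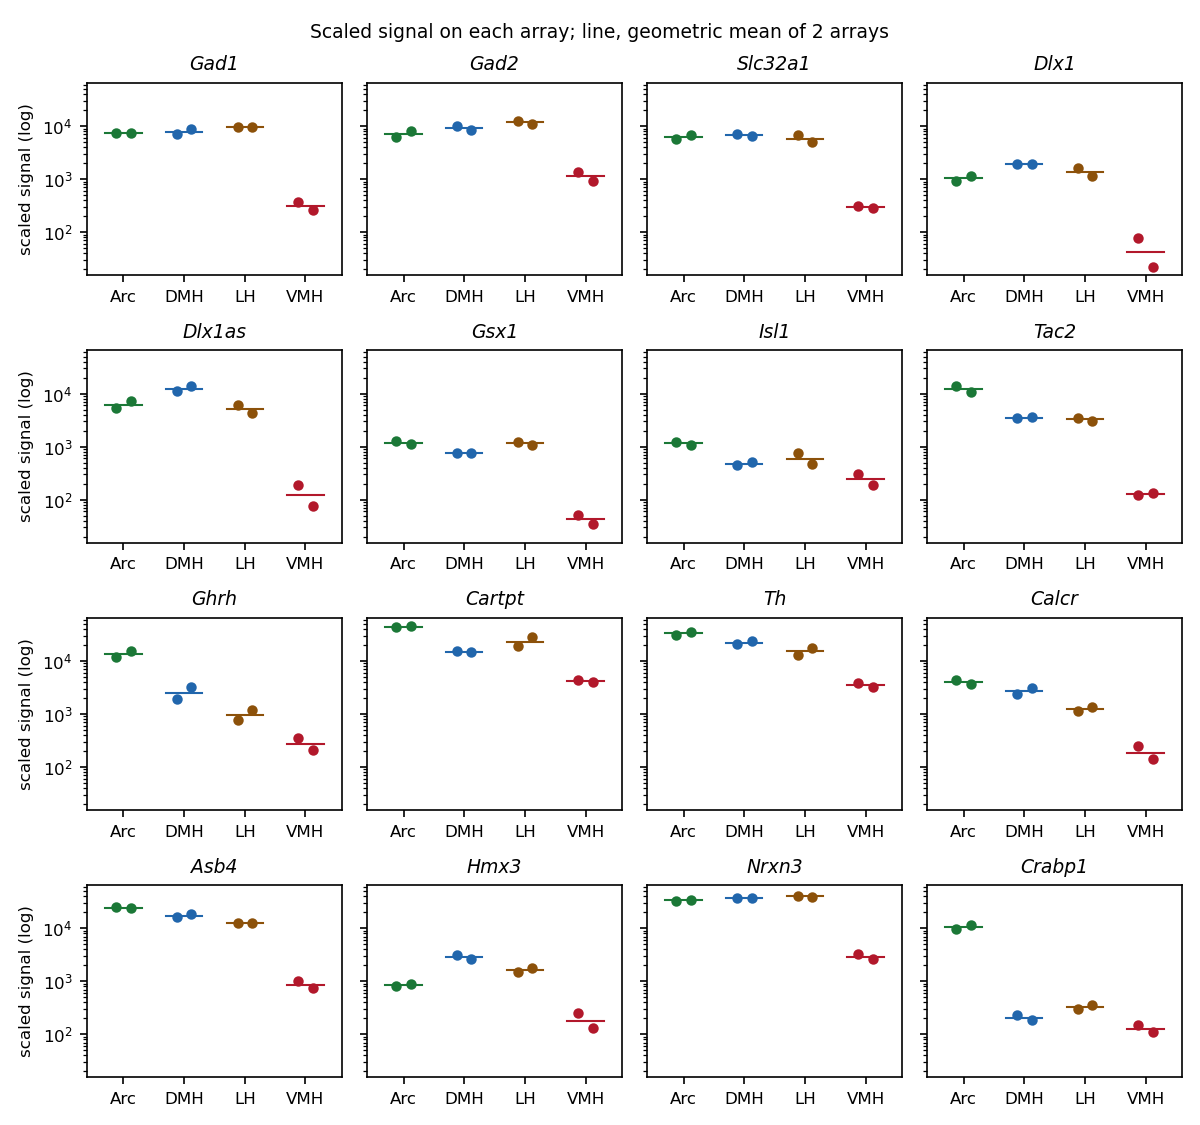
Scaled signal (log axis) of 16 member genes on the 2 arrays of the Arc, DMH, LH and VMH. Points are arrays and lines are geometric means of 2 arrays. *Gad1*, *Gad2* and *Slc32a1* sit at similar heights in the other 3 nuclei and *Crabp1*, *Ghrh* and *Tac2* stand highest in the Arc, and for all 16 both VMH points are the lowest.

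Most transcription factors of GABA neurons that could meet the rule were members. Of 13 such genes 8 were members, beside 10.5% of all genes that could meet the rule, among them *Dlx1*, *Dlx2*, *Dlx5*, *Dlx6*, *Isl1*, *Pbx3* and *Gsx1*, with 5 of the 8 at least 4-fold lower as read and 4 with dim VMH signals raised, and the median over the 13 was -1.52. *Dlx1*, a homeobox factor of forebrain GABA neurons, read 926 and 1167 in the Arc, 1895 and 1921 in the DMH, 1619.8 and 1141 in the LH and 77.2 and 22.5 in the VMH. Neither VMH signal was well above background, so it was at least 13.4-fold lower there. *Dlx1as*, an RNA transcribed from the opposite strand of the *Dlx1* locus, was a member too. It read 5264 and 7249 in the Arc, 11212 and 13626 in the DMH, 6139 and 4348 in the LH and 191 and 76.2 in the VMH, and only VMH1 was well above background (at least 56.5-fold lower). The 2 RNAs overlap, and whether a probe for one strand also captured the other was not tested.

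*Dlx2*, the neighbor of *Dlx1*, read 88.7 and 38.7 in the VMH and 402 to 889 elsewhere (at least 5.95-fold lower). *Gsx1*, a homeobox factor of progenitors, read 51.7 and 35.2 against 746 to 1250.2 (at least 9.73-fold). Both genes were below background on both VMH arrays. *Dlx6* was too, with 36 and 20.4 against 247 to 393 (at least 3.00-fold). *Dlx5* was at least 3.69-fold lower with 1 VMH array above background, *Isl1* 2.87-fold and *Pbx3* 2.21-fold. Among those that were not members, *Lhx6*, *Npas3*, *Tcf4* and *Zeb2* had log2 differences between -0.76 and 0.15, and *Npas1* was not well above background in the Arc.

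Other homeobox and patterning factors split in both directions. Of 28 that could meet the rule, 6 were members (*Otp*, *Hmx2*, *Hmx3*, *Lhx1*, *Lhx2* and *Hdac9*, a histone deacetylase that the list also held) and 6 were higher on both VMH arrays than on all others, *Nr5a1* and *Nkx2-1* among them, beside 10.5% of all genes in each direction. The median over the 28 was -0.27. *Hmx3*, a homeobox factor needed for hypothalamic neuron subtypes, read 809.8 and 876 in the Arc, 3185 and 2660.1 in the DMH, 1489 and 1746 in the LH and 249 and 129.7 in the VMH (8.80-fold lower). Its neighbor and paralog *Hmx2* read 793 and 735 in the Arc, 3329.8 and 2431 in the DMH, 2202 and 1401 in the LH and 164 and 48.8 in the VMH (at least 13-fold lower, VMH1 alone above background). Both were highest in the DMH, although none of the 3 pairwise differences of *Hmx3* among the outer nuclei passed 0.05 (DMH over Arc, adjusted p = 0.0597) beside an F-test adjusted p of 0.0489.

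*Otp*, required for several neuroendocrine cell types, read 76.9 and 122 in the VMH and was at least 6.36-fold lower there. In the Arc it read 1896 and 1845, above the DMH (2.05, SE 0.26, adjusted p = 0.0173) and the LH (1.76, SE 0.26, adjusted p = 0.00993). *Lhx2* read 2105 and 1907 in the Arc, 628 and 476 in the DMH, 916 and 1153 in the LH and 43.2 and 227 in the VMH. As a ratio, its 2 VMH arrays differed by more than those of any outer nucleus, and only VMH2 was well above background. *Lhx1* read 34.7 and 30.4 in the VMH, below background on both arrays, and 355 to 657 elsewhere (at least 4.40-fold lower). Outside the list, *Foxd2*, a forkhead factor, was at least 5.98-fold lower, and *Nhlh2*, a basic helix-loop-helix factor linked to body weight, at least 5.37-fold lower with its highest signals in the Arc (1603 and 1450.2).

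**Figure D3:**
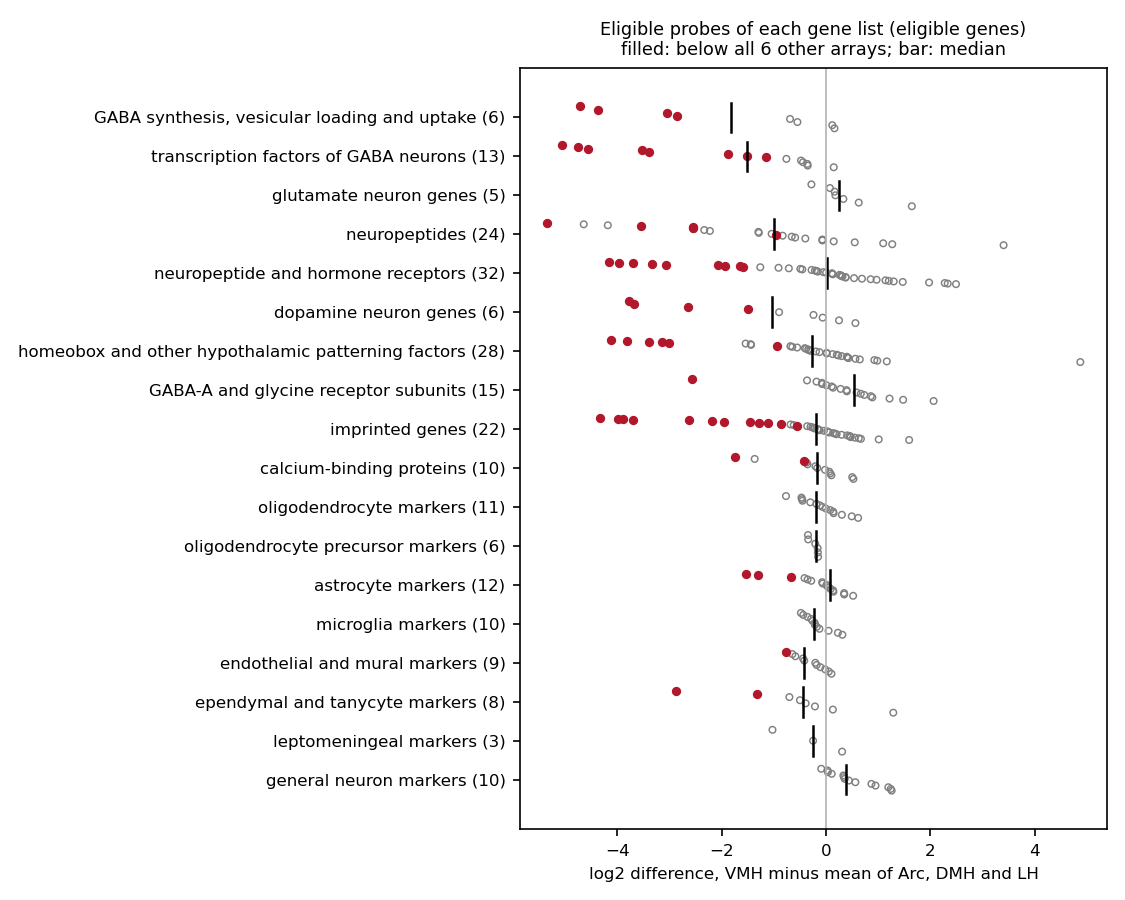
Log2 difference of the VMH minus the mean of the Arc, DMH and LH (horizontal axis) for every probe that could meet the rule in 18 gene lists, with the number of such genes in brackets. Filled points are members, open points are not, and black bars are medians over genes. The lists for GABA synthesis and for GABA transcription factors have medians of -1.83 and -1.52, and the list of general neuron markers has 0.39.

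Several peptide genes of neighboring nuclei were members. Of 24 neuropeptide genes that could meet the rule, 5 did (*Tac2*, *Ghrh*, *Cartpt*, *Pnoc* and *Vgf*) and 2 were higher on both VMH arrays than on all others (*Adcyap1* and *Chga*), beside 10.5% of all genes in each direction, with a median of -1.0. *Tac2*, which encodes neurokinin B, read 13623 and 10678 in the Arc, 3436 and 3601 in the DMH, 3522 and 3101 in the LH and 124 and 131 in the VMH. Both VMH signals were far below every other, and only 1 of them was well above background (at least 40.8-fold lower). In the Arc it was higher than in the DMH (log2 difference 1.78, SE 0.21, adjusted p = 0.0125) and the LH (1.87, SE 0.21, adjusted p = 0.00387).

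*Ghrh*, the growth hormone-releasing hormone, read 11681 and 15186 in the Arc, 1902 and 3269.8 in the DMH, 779.8 and 1168 in the LH and 349 and 209 in the VMH. The Arc arrays stood above all others and the VMH arrays below all others (11.7-fold lower; Arc minus DMH 2.42, SE 0.39, adjusted p = 0.0388; Arc minus LH 3.80, SE 0.39, adjusted p = 0.00287). *Cartpt*, the precursor of the satiety peptide CART, read 43102 and 44665 in the Arc, 15306 and 14569.9 in the DMH, 19288 and 27917 in the LH and 4463 and 3989 in the VMH, 5.87-fold lower in the VMH though still well above background. *Pnoc*, the nociceptin precursor, read 166 and 116 in the VMH and 519 to 1317 elsewhere (5.81-fold lower). *Vgf*, a granule protein gene, differed least of the 5 (log2 difference -0.96). It was not a member when the arrays were left unscaled.

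Other peptide genes with a large mean difference did not meet the rule. *Gal*, the galanin gene, had a log2 difference of -4.18, and read 20838 and 24187 in the Arc, 40669 and 43021 in the DMH, 656 and 13551 in the LH and 1147 and 528 in the VMH. LH1 lay below VMH1, so the probe was not a member, and the 2 LH arrays differed by far more than those of any other nucleus. *Hcrt* (-4.64), *Agrp* (-2.54), *Npy* (-2.33) and *Kiss1* (-2.22) were likewise not members, since at least 1 outer array lay at or below the higher VMH array. *Adcyap1*, which encodes the peptide PACAP, read 17586 and 18972 in the VMH against 637 to 2821 elsewhere.

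Of 6 genes of dopamine neurons that could meet the rule, 3 were members, beside 10.5% of all genes, 4 had a difference below 0, and the median was -1.03. *Th*, tyrosine hydroxylase, the rate-limiting enzyme of dopamine synthesis, read 31311 and 34984 in the Arc, 20687 and 23366 in the DMH, 13167 and 17263 in the LH and 3899.9 and 3242 in the VMH (6.25-fold lower). *Gch1*, which makes the cofactor of Th, was below background on both VMH arrays with 2 probes, and the first read 1834 and 1269 in the Arc, 220.2 and 329 in the DMH, 270.1 and 149.6 in the LH and 25.7 and 39.2 in the VMH (at least 4.19-fold lower; the second probe at least 2.97-fold). *Slc18a2*, which loads monoamines into vesicles, read 3524 and 4564 in the Arc, 1983 and 2275 in the DMH, 747 and 729.9 in the LH and 715 and 595 in the VMH (2.83-fold lower). Its LH signals were close to those of the VMH, and it was not a member without scaling or after normexp background correction. All 3 were highest in the Arc, and Arc minus LH was 1.13, SE 0.23, adjusted p = 0.0268 for *Th* (F-test adjusted p = 0.0677, not past 0.05), 2.92, SE 0.39, adjusted p = 0.00665 for *Gch1* and 2.44, SE 0.22, adjusted p = 0.00217 for *Slc18a2*. The 3 that were not members act in the synthesis of dopamine or its cofactor. *Ddc* had log2 differences of -0.06 and 0.57 with 2 probes, *Qdpr* of -0.24 and -0.90 with 2 probes, and *Pts* of 0.25.

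The promoters of *Th*, *Cartpt* and *Ghrh*, which are peptide or dopamine genes described above, are shown because they hold a searched motif (RefSeq, GRCm38.p6, 250 bases before the start site, 5′ to 3′). Capitals mark TGACGTCA, the cyclic AMP response element, in *Th* and *Cartpt*, and TAATTA, a core of homeodomain sites, in *Ghrh*, for which the table lists another start site whose window holds none of the 3 motifs. Among the other genes at least 4-fold lower, *Asb4* holds TAATTA and *Casz1* holds CAAGGTCA.
Th, chr7:142899996-142900245, minus strand: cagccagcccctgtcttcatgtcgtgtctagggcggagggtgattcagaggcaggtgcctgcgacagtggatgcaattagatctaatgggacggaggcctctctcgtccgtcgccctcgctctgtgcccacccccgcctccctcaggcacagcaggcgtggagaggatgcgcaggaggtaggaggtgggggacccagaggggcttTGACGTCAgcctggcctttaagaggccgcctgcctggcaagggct
Cartpt, chr13:99900684-99900933, minus strand: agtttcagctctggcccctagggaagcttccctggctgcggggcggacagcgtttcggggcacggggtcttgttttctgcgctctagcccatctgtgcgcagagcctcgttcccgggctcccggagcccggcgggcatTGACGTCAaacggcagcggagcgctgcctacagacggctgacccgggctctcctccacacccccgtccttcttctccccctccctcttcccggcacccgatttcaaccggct
Ghrh, chr2:157337427-157337676, minus strand: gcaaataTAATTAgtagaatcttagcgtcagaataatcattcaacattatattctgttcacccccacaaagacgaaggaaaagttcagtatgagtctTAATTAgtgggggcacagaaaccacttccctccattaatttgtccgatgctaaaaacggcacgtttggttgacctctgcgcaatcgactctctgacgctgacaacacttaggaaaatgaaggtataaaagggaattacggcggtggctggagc

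In the promoters of members these motifs were about as frequent as in those of genes that could meet the rule, while over all genes in the table TGACGTCA was rarer and TAATTA more frequent than in either. The table held a promoter for 954 of the 1191 member genes (80.1%) and for 9086 of the 11347 genes with a probe that could meet the rule (80.1%). TGACGTCA, which reads the same on both strands, lay in 3.67% of member promoters, 3.07% of those of all genes that could meet the rule and 1.77% of all 27025 genes in the table. TAATTA, also palindromic, lay in 2.52%, 2.97% and 5.65%. CAAGGTCA, the extended hormone response site bound by Nr5a1, searched on both strands, lay in 1.47%, 1.33% and 1.51%. The motifs do not overlap one another. Member promoters had a median G and C content of 59.7%, against 60% for genes that could meet the rule. A match describes the letters of this window and says nothing of binding.

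Receptor genes were as often low as high in the VMH. Of 32 receptor genes for neuropeptides and hormones that could meet the rule, 8 were members and 8 were higher on both VMH arrays than on all others, beside 10.5% of all genes in each direction, with a median of 0.02. *Calcr*, the calcitonin receptor, read 4312 and 3608 in the Arc, 2385 and 3069 in the DMH, 1156 and 1376 in the LH and 244 and 139 in the VMH (12.9-fold lower). *Ramp3*, a protein that pairs with Calcr to form a receptor for amylin, was also a member, with 2959 and 4811 in the Arc, 3607 and 3941 in the DMH, 1868 and 1504 in the LH and 892 and 359 in the VMH (5.08-fold lower), and it is named here after its values were seen. *Cckar*, the cholecystokinin A receptor, read 48 and 45.9 in the VMH, below background, and 651 to 1363 elsewhere (at least 8.04-fold lower).

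*Avpr1a*, a vasopressin receptor, read 219 and 139 in the Arc, 477 and 589.7 in the DMH, 673 and 402 in the LH and 29.7 and 18.4 in the VMH. Both VMH arrays were below background (at least 3.50-fold lower). *Crhr1*, a receptor for corticotropin-releasing hormone, was a member with both of its probes (at least 2.48-fold for the one below background on both VMH arrays, at least 4.18-fold for the other). *Grpr*, a bombesin-like peptide receptor, read 45.5 and 29.5 against 262 to 349 (at least 2.96-fold), and *Brs3*, of the same family, was at least 3.01-fold lower. *Oprm1*, the mu opioid receptor, read 3370.5 and 4089.6 in the Arc, 3901 and 3951 in the DMH, 7282 and 6489 in the LH and 1552 and 1413 in the VMH (3.14-fold lower), while the delta, kappa and nociceptin receptors *Oprd1*, *Oprk1* and *Oprl1* were higher on both VMH arrays than on all others. *Npy2r* was 3.83-fold lower in the VMH and highest in the Arc (Arc minus DMH 1.81, SE 0.25, adjusted p = 0.0218).

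Imprinted genes supplied 7 members of 22 that could meet the rule, beside 10.5% of all genes (*Asb4*, *Calcr*, *Gnas*, *Dlk1*, *Peg10*, *Plagl1* and *Impact*), 5 of them at least 4-fold lower as read and 4 with dim VMH signals raised, although the median over the 22 was -0.20 and 5 genes of the list had a probe that was higher on both VMH arrays. *Asb4*, a subunit that brings proteins to a ubiquitin ligase, read 25394 and 23780.0 in the Arc, 16027 and 18678 in the DMH, 12557 and 12729.9 in the LH and 1007 and 748 in the VMH (20.2-fold lower). A second probe read 19830.1 and 24079.6 in the Arc, 12277 and 11767 in the DMH, 8204 and 6374 in the LH and 962 and 719.7 in the VMH (14.9-fold lower). *Dlk1*, a Notch-related membrane protein, was 6.20-fold lower by one probe and 3.90-fold by another. *Peg10*, derived from a retrotransposon, was at least 4.31-fold and 2.73-fold lower.

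Probes of 2 imprinted genes disagreed. For *Gnas*, which encodes a G protein subunit and other transcripts, one probe read 742 and 574 in the Arc, 305 and 283 in the DMH, 176 and 334 in the LH and 28.5 and 18.2 in the VMH (at least 3.46-fold lower), another member probe had a log2 difference of -0.86, and 1 that was not a member had 0.06. *Plagl1* had 2 member probes (log2 differences -1.28 and -1.10) and 1 that was higher on both VMH arrays than on all others (1.59). Which transcripts these probes report was not tested.

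Members outside the lists included genes of synapses and signaling. *Nrxn3*, a presynaptic adhesion molecule, read 32966 and 34307 in the Arc, 38125 and 37871 in the DMH, 41416 and 38396 in the LH and 3318 and 2588 in the VMH. Its outer arrays were nearly equal and the VMH was 12.7-fold lower by this probe. Another 4 member probes of *Nrxn3* had smaller log2 differences of -1.24, -1.14, -1.10 and -0.98. *Syt17*, of the synaptotagmin family, read 1637 and 2355 in the Arc, 1119 and 1181 in the DMH, 2349.8 and 588 in the LH and 32.8 and 56.7 in the VMH, below background on both VMH arrays (at least 13.3-fold lower). *Mdga1*, a surface protein that binds neuroligins, was a member with 2 probes, at least 8.89-fold lower by the one with 1 VMH array above background and 8.39-fold by the other. *Ngfr*, the low-affinity neurotrophin receptor, read 3202 and 6158 in the Arc, 2842 and 2392 in the DMH, 2489.6 and 4799 in the LH and 215 and 227 in the VMH (15.5-fold lower).

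*Ecel1*, a neuronal metalloprotease, read 35686 and 39726 in the Arc, 15996 and 21068 in the DMH, 25815 and 27914 in the LH and 4669 and 2784 in the VMH (7.34-fold lower). *Dgkk*, a diacylglycerol kinase, was 10.4-fold lower, *Arhgap12*, a GTPase-activating protein, 8.20-fold, and the membrane protein gene *Tmem178* 7.68-fold. *Apoc3*, an apolipoprotein gene, read 42.3 and 77.8 in the VMH, below background, and 163 to 1768 elsewhere (at least 6.99-fold lower). *Crabp1*, which binds retinoic acid, read 9879 and 11601 in the Arc, 232 and 185 in the DMH, 300.5 and 355 in the LH and 148 and 109 in the VMH. It met the rule although its mean difference (7.09-fold) came mainly from the Arc, and the lowest outer signal was 1.25 times the higher VMH signal.

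**Figure D4:**
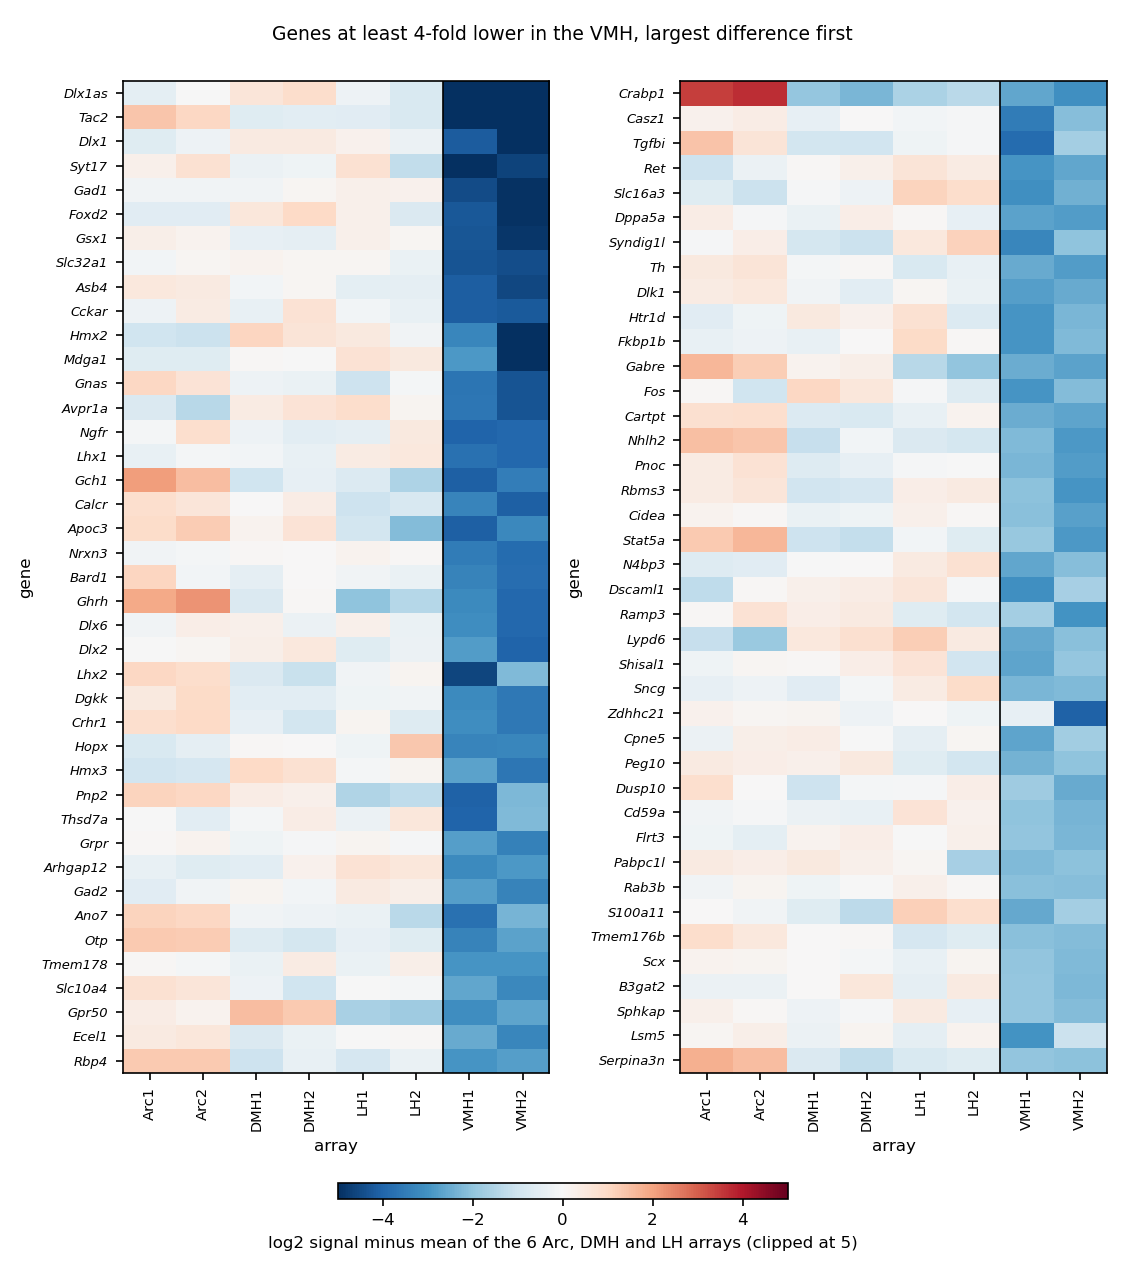
Log2 signal on each of the 8 arrays minus the mean of the 6 Arc, DMH and LH arrays, for 81 of the 82 named genes at least 4-fold lower in the VMH (1 probe per gene, ordered from the largest difference). Colors are clipped at 5. Both VMH columns are blue in nearly all rows, while Arc columns are red for *Crabp1*, *Ghrh*, *Gch1* and *Serpina3n*, and *Zdhhc21* is low on VMH2 far more than on VMH1.

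Other probes of the same genes share the RNA and the arrays but not the sequence, so they are no independent check of membership. The counts of genes below were made for member genes only. Among the member genes, 107 had 2 or more member probes. Another 379 probes of member genes could meet the rule but did not, and 296 of them (78.1%) had a VMH mean below the mean of the other 3 nuclei (median log2 difference -0.18), beside 44.3% of all 21211 such probes. Of the 82 genes that were at least 4-fold lower, 23 had 2 or more probes that could meet the rule, and for 19 of these every such probe was a member. The exceptions were *Flrt3*, *Gnas*, *Casz1* and *Zdhhc21*, whose remaining probes had log2 differences from -1.28 to 0.13.

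Some of the strongest members lie next to each other in the genome. Among the 82 genes, 9 pairs had at most 10 protein-coding genes between them in the RefSeq order, and 2 of the pairs rest on *Dlx1as*, which overlaps *Dlx1*. Pairs were not counted for other sets of genes. On chromosome 2, *Dlx1*, *Dlx1as* and *Dlx2* are adjacent and *Gad1* lies 9 genes away. On chromosome 6, *Calcr*, *Peg10*, *Asb4* and *Dlx6* follow each other with 7, 5 and 4 genes between them, and on chromosome 7 *Hmx2* and *Hmx3* are adjacent. Chromosome 2 held 13 of the 82 genes (15.9%), beside 8.14% of all genes that could meet the rule, and the share of genes that were members ranged from 7.69% on chromosome 5 to 13.0% on chromosome 19.

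Markers of other cells were examined for the same arrays. Of 11 oligodendrocyte, 6 oligodendrocyte precursor, 10 microglia and 3 leptomeningeal marker genes that could meet the rule, 0 were members, nor were any of 10 general neuron markers, and no anterior pituitary marker was well above background on all 6 outer arrays. Of all genes that could meet the rule 10.5% were members, so that lists of this size hold about 1 member or none at that share. The members among 12 astrocyte markers were *Gfap*, the astrocyte filament protein (1367 and 1666 in the Arc, 730.4 and 647 in the DMH, 372 and 849 in the LH and 302 and 278 in the VMH, 2.88-fold lower), and *Sox9* (log2 difference -0.67). *Rgs5* was the only member of 9 endothelial and mural markers (-0.77). Of 8 ependymal and tanycyte markers, *Vim* (-1.32) and *Gpr50* were members. Of 10 calcium-binding protein genes, *S100a10* (-1.75) and *Rcn1* (-0.42) were.

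Median differences of these lists lay between -0.44 (ependymal and tanycyte markers) and 0.39 (general neuron markers), beside 0.0098 over all probes that could meet the rule. The difference was below 0 for 9 of 9 endothelial and mural, 6 of 6 oligodendrocyte precursor and 8 of 10 microglia genes. It was below 0 for 7 of 11 oligodendrocyte, 6 of 8 ependymal and tanycyte, 2 of 3 leptomeningeal, 5 of 12 astrocyte and 1 of 10 general neuron genes. The summed signal of the oligodendrocyte list was 44026 and 47441 in the VMH, within the range of 17462 to 150148 of the other arrays, where the LH was highest with 141150.0 and 150148. The summed signal of the neuron list was 278628 and 249062 in the VMH and 206419 to 243151 elsewhere. The astrocyte list summed to 114754 and 103368 in the VMH and 78811 to 129973 elsewhere, and the ependymal and tanycyte list to 5504 and 4854 and 4929.6 to 10905. The part of these cell types in the differences of single genes was not tested.

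The order of the Arc, DMH and LH was not part of the rule. The rule did use their 6 signals, each of which had to lie above the VMH, and the VMH arrays enter the estimate of the spread, so the counts over members below are a description. The highest mean was in the Arc for 823 members, in the LH for 765 and in the DMH for 315 (43.2%, 40.2% and 16.6%, beside 37.5%, 41.5% and 21.1% of all probes that could meet the rule). For the 113 members at least 4-fold lower it was in the Arc for 56, in the DMH for 29 and in the LH for 28. The median member spanned 1.33-fold between the highest and lowest of the 3 means, and the median of those 113 spanned 2.15-fold, beside 1.37-fold for all probes that could meet the rule. The 4-fold cut used the mean of the 3 nuclei, so a probe very high in 1 of them, such as *Crabp1*, could pass it mainly through that nucleus. The wider span of the 113 can therefore be partly set by the cut.

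By the limma F-test, 73 of 1903 members (3.84%) differed among the 3 nuclei at an adjusted p under 0.05, against 5.75% of all 28765 probes tested and 4.38% of the 23114 that could meet the rule. Of the 113 members at least 4-fold lower, 22 (19.5%) did, a share that the 4-fold cut can raise in the same way. The Arc was above the DMH for 19 members and below it for 6, where 0.535% and 0.73% of all probes, and 0.268% and 0.459% of those that could meet the rule, were. It was above the LH for 74 members (3.89%) and below it for 50 (2.63%), where 3.32% and 6.02% of all probes, and 2.29% and 5.72% of those that could meet the rule, were. The DMH was above the LH for 3 and below it for 2, where 0.261% and 0.671% of all probes, and 0.0606% and 0.428% of those that could meet the rule, were. Without Arc1 or Arc2 the F-test passed 9 and 8 members, without DMH1 or DMH2 it passed 29 and 30, without VMH1 or VMH2 41 each, and without LH1 or LH2 79 and 89.

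**Figure D5:**
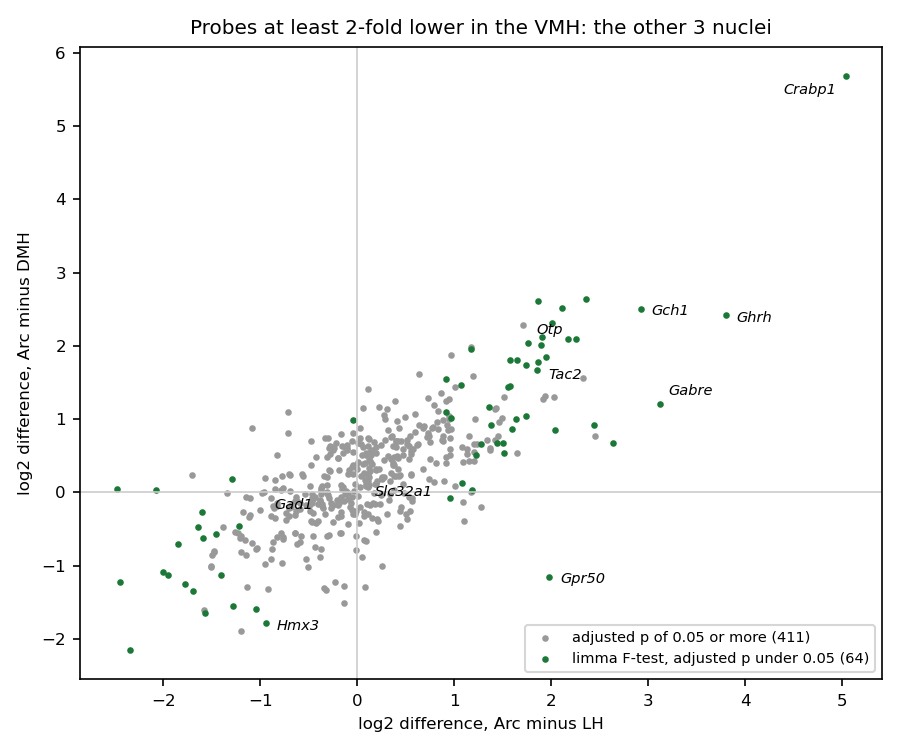
Log2 difference of the Arc minus the DMH (vertical axis) against the Arc minus the LH (horizontal axis) for the 475 members at least 2-fold lower in the VMH, with 1 point per probe. Green points, 64 of them, passed the limma F-test among the 3 nuclei at an adjusted p under 0.05, and the other 411 did not. *Gad1* and *Slc32a1* lie near the center, and *Crabp1* lies farthest out toward the Arc.

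Of the 73 members, both arrays of the Arc stood above all 4 of the DMH and LH for 45 (61.6%), both of the DMH above the rest for 4 (5.48%) and both of the LH for 18 (24.7%). Of the 1012 probes that could meet the rule and passed the F-test, these shares were 22.3%, 4.05% and 65%. *Crabp1* was the extreme among those highest in the Arc (Arc minus DMH 5.69, SE 0.25, adjusted p = 0.000284). *Serpina3n*, a protease inhibitor that reactive astrocytes produce, was also highest in the Arc, with 13573 and 11396 in the Arc, 2345 and 1688 in the DMH, 2287 and 2583 in the LH and 1000.1 and 958 in the VMH (Arc minus DMH 2.64, SE 0.23, adjusted p = 0.00501), and was chosen after its values were seen. The 3 named genes with both DMH arrays above the rest were *Gpr50*, *Hmx3* and *Synpr*, and none passed 0.05 against both other nuclei. *Gpr50*, an orphan receptor related to the melatonin receptors, read 927 and 814 in the Arc, 2097 and 1774 in the DMH, 235 and 207 in the LH and 83.5 and 114 in the VMH (DMH minus LH 3.13, SE 0.24, adjusted p = 0.00693). Its Arc minus DMH was -1.15 (SE 0.24, adjusted p = 0.0864). *Synpr*, the synaptic vesicle protein synaptoporin, read 6165 and 5512 in the Arc, 17023 and 17188 in the DMH, 15328 and 13176 in the LH and 3609.9 and 2405 in the VMH (Arc minus DMH -1.55, SE 0.25, adjusted p = 0.0394). Its DMH minus LH was only 0.27 (SE 0.25, adjusted p = 0.619).

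Among those highest in the LH, *Serpinf1*, which encodes the secreted protein PEDF, read 387 and 288 in the Arc, 286 and 365 in the DMH, 1854 and 1863 in the LH and 165 and 167 in the VMH (DMH minus LH -2.52, SE 0.23, adjusted p = 0.0134). *Etl4* read 1229 and 1634 in the LH and 247 to 656 in the Arc and DMH (Arc minus LH -2.45, SE 0.22, adjusted p = 0.00212). The adenylosuccinate synthase gene *Adssl1* read 4413 and 2953 against 1109 to 1709 (Arc minus LH -1.60, SE 0.28, adjusted p = 0.0174). DMH minus LH did not pass the threshold for *Etl4* (-1.23, SE 0.22, adjusted p = 0.0633) or *Adssl1* (-1.33, SE 0.28, adjusted p = 0.0948). The VMH signals of *Serpinf1*, *Etl4* and *Adssl1*, 165 and 167, 199 and 199.6 and 465 and 511, in the same order, were the lowest of the 4 nuclei. *Etl4* was not a member when the arrays were left unscaled.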

How the data were processed

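RNA of 4 laser-microdissected nuclei was hybridized to 8 arrays on 1 slide scanned once, and the replicate number is also the row on the slide. The authors extracted spot intensities with Agilent Feature Extraction (version 10.7.3.1 per the file headers, 11.5.1.1 per the labels and methods). The deposited processed intensity is background-subtracted and spatially detrended on a linear scale, and it was not scaled between arrays. The dye is Cy3 in the labels and Cy5 in the methods. The red channel, where Cy5 is read, is what was deposited and used. Low intensities can be set mainly by background, and no spot was saturated.

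Outlier spots were left out, spots of a probe averaged, each array divided by its 75th percentile (815 to 1239 before scaling, rescaled to a common level) and log2 taken. Between 47.1% and 52.7% of spots were well above background, which limits the precision together with the number of arrays. One limma model with a mean per nucleus was fitted to 28765 probes for which some nucleus had 2 arrays well above background (131 with a missing value left out), with 4 residual and 3.02 prior degrees of freedom. Its F-test and 3 pairwise contrasts among the Arc, DMH and LH were adjusted by Benjamini-Hochberg (threshold 0.05) over all of these probes. SE values are those of limma, and a fold is 2 to the power of the difference of mean log2 signals.

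Gene symbols came from RefSeq accessions (26762 of 28390 matched, 94.3%) through the GRCm38.p6 table. The files name no genome build. Named genes were the 15 largest differences among members measured on both VMH arrays, the 10 largest lower bounds among those measured on neither, the 5 largest measured on 1, the 3 highest in each outer nucleus past the F-test, the edges of the rule, and the members of the gene lists. The members and the gene lists were chosen with earlier results of these data known. Some genes of the lists are counted but not reported by name here. Python 3.11.15, pandas 2.3.3, R 4.3.3 and limma 3.58.1 were used.

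Alternatives were no scaling, quantile normalization, background correction by normexp (offset 50), the deposited value table, no removal of outlier spots, a floor for dim signals at the lowest one measured, other filters, each array left out, a replicate block, the 6 outer arrays only, trended and robust moderation, and a one-way analysis of variance per probe.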

Additional observations from a re-analysis of the deposited data

How the results depend on the processing

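The rule took 1903 probes. Without scaling it took 691, of which 609 were among the 1903, and under the other alternatives that kept all 8 arrays it took 1657 to 2627. With each array left out it took 2134 to 3838. Members at least 4-fold lower numbered 113, and 34 with normexp background correction, 172 with no filter on dim probes and 48 when all 8 arrays had to be well above background, with 112 to 154 when an array was left out. Other probes of member genes below the mean numbered 296, 270 without scaling and 291 with normexp. For 47 named differences over 14 settings, 569 of 658 values stayed within the spread between arrays and 89 moved further. Their direction was largely fixed by the rule. Of the 89, 39 came from normexp, where *Gad1* had a log2 difference of -4.01 in place of -4.71 and *Tac2* -3.83 in place of -5.35, 14 from raising dim signals and 18 from leaving out each VMH array.

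The counts of the tests among the Arc, DMH and LH depend on the setting. Members past the F-test numbered 73, and 36 without scaling, 134 with normexp, 110 with dim signals raised, 31 with no filter, 41 with the 6 outer arrays only and 132 with trended and robust moderation, with 8 to 89 when an array was left out. The one-way analysis of variance per probe called 0 after adjustment and 352 at an unadjusted p under 0.05. Arc against DMH gave 25, and 49 with normexp, 11 with no filter, 10 with 6 arrays and 43 with trended and robust moderation, with 2 to 39 when an array was left out. Arc against LH gave 124, and 55 without scaling and 64 with no filter, with 19 to 126 when an array was left out. DMH against LH gave 5, and 16 with normexp, 9 with dim signals raised, 2 with no filter, 10 with all 8 arrays above background, 2 with 6 arrays and 11 with trended and robust moderation, with 0 to 17 when an array was left out. The 0 was limma's count without DMH replicate 1, where 128 members had an unadjusted p under 0.05. Where an array is left out, the lone array of that nucleus is assumed to vary like the others. The cause of these changes was not tested.

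Arrays with the same replicate number also shared a row of the slide. Their deviations from the nucleus means correlated from -0.0256 to 0.258 over the 6 pairs of nuclei, and which arrays share a mouse is not given in the sources used here. With a replicate block the F-test passed 51 members, Arc against DMH 12, Arc against LH 110 and DMH against LH 3. With each VMH array set only against arrays of its number the rule took 2627 probes, 114 members being at least 4-fold lower. Dim signals limit the data, since 196 members were below background on 1 VMH array and 50 on both.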

Other observations

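Some genes were low in the VMH but could not meet the rule because neither Arc array was well above background. They were chosen from the gene lists after their values were seen. *Ebf3*, a helix-loop-helix transcription factor, read 3043 and 5175 in the DMH, 3287 and 3818 in the LH, 28.9 and 25.6 in the Arc and 29.1 and 18.3 in the VMH. *Trh*, which encodes thyrotropin-releasing hormone, read 5586 and 9818 in the DMH, 6519 and 5689.7 in the LH, 116 and 119 in the Arc and 45.5 and 43.8 in the VMH. *Crh*, the corticotropin-releasing hormone gene, read 2026 and 2543 in the DMH, 4931 and 3623 in the LH, 28.7 and 26.8 in the Arc and 265 and 49.4 in the VMH. *Foxp2*, a forkhead factor, read 727 and 593 in the DMH, 431 and 286 in the LH, 145 and 104 in the Arc and 29.9 and 19 in the VMH. For all 4 the DMH and LH arrays lay above the Arc and VMH arrays. *Oxt*, the oxytocin gene, was high on single arrays of 3 nuclei, with 19 and 27 in the DMH, 109 and 8332 in the LH, 6559 and 848 in the Arc and 25.4 and 1242 in the VMH.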
